A study of Mus musculus with 72 samples.

Results

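The genes described here encode the enzymes, carriers and membrane proteins of mitochondrial and peroxisomal fatty acid oxidation. They were taken as a list of 34 gene symbols, each read from the probe set with the highest mean intensity, out of 20772 genes that could be named on the array. Of the 34 members, 19 act in mitochondria, 11 act in peroxisomes, and 4 (Slc22a5, Acsl1, Vnn1 and Crat) act in neither or in both.

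Long-chain fatty acids are activated to acyl-CoA, pass into mitochondria as carnitine esters, and are shortened there by repeated rounds of dehydrogenation, hydration, dehydrogenation and thiolysis that feed electrons into the respiratory chain. Peroxisomes shorten very long and branched chains with their own enzymes and pass the products on as carnitine esters or free acids. In liver many of these genes are targets of PPARA, the nuclear receptor activated by fatty acids, and their products supply acetyl-CoA for ketone bodies; in the intestine the absorptive cells use the same enzymes on part of the fat they take up.

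RNA was measured on Affymetrix mouse gene arrays in liver and in intestine, the latter carrying the abbreviation IEC in the labels. The mice were C57BL/6J males, 8 weeks old at the start, kept in 12 h of light and 12 h of dark with free access to either normal chow or a ketogenic diet for 4 weeks. Each combination of tissue, diet and zeitgeber time (ZT, hours after lights on, at 0, 4, 8, 12, 16 and 20) had 3 arrays, which gives 24 groups, 36 arrays per tissue and 72 in all. The protocol text shared by all samples also mentions an oral fructose course in the last week and sucrose in the drinking water for some experiments. Whether either was given to the animals behind these arrays is not stated, and no group is labelled with it. Separate animals are not stated either, so the p-values below measure the spread between these samples, and their precision is limited by how many arrays there are.

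Values are log2(intensity + 16), with intensities as the authors deposited them. Array medians of the intensity were 105.0 to 119.5 in liver and 106.7 to 121.2 in intestine. All 8 hepatocyte markers passed the filter on low values in liver, the lowest being Cyp7a1 at a mean of 11.57. In intestine 6 of them passed too, the highest being Apoa1 at 13.57 (13.72 in liver), while Cyp7a1 was at 4.70. All 8 enterocyte markers passed in intestine, the lowest being Cdx1 at 10.18. In liver 2 of them passed, the highest being Apoa4 at 12.63, while Sis was at 4.51. Neither list was thus confined to 1 tissue. The mean of the enterocyte markers spanned 12.10 to 12.32 over the chow arrays and 11.80 to 12.31 over the ketogenic arrays of the intestine; 1 of them was higher and 4 were lower on the ketogenic diet. The 4 smooth muscle markers averaged 6.41 to 6.70 on chow arrays and 6.29 to 6.81 on ketogenic arrays of the intestine, with neither of the 2 tested called. The goblet cell markers averaged 12.54 to 13.11 on chow and 12.47 to 13.01 on the ketogenic diet there, with 1 of 3 lower. The immune cell markers averaged 7.31 to 8.17 and 6.99 to 8.04, with 1 of 5 higher and 2 lower, and of the 6 hepatocyte markers tested there 2 were higher. In liver the immune cell markers averaged 7.32 to 7.92 on chow and 7.12 to 7.61 on the ketogenic diet, with 0 of 4 called. Of 8 hepatocyte and 4 smooth muscle markers tested in liver, 1 of each list was higher and 1 lower. Higher there were also 1 of 2 enterocyte, 1 of 1 adipocyte and 1 of 2 exocrine pancreas markers tested. The 1 goblet cell marker tested was lower, and that list averaged 6.30 to 7.04 on chow and 4.92 to 6.20 on the ketogenic diet. In bulk tissue, fewer cells of a type and less RNA per cell cannot be told apart, and the part of either in the diet differences below was not tested.

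In the intestine 3 ketogenic arrays stood apart from their groups (ZT0 replicate 1, ZT8 replicate 26 and ZT20 replicate 27), with residual SDs of 2.12, 1.56 and 1.55 times the tissue's median. In chow liver the 17 clock genes of ZT8 replicate 12 read 12.2 h and those of ZT12 replicate 17 read 8.6 h. Where a call of a member changed without these arrays, the value without them is given beside it. In intestine 13 clock genes were read. Reading minus label there ran from -2.6 h (ZT16 replicate 23) to 0.1 h (ZT0 replicate 2) over the ketogenic arrays. Over the chow arrays it ran from -1.7 h (ZT20 replicate 13) to 1.6 h (ZT8 replicate 10). The part of this in the peaks and diet differences at single times was not tested.

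In liver the ketogenic diet raised nearly the whole list. Of the 34 members, all of which passed the filter on low values in both tissues, 33 were higher on the ketogenic diet than on chow, none was lower, and Abcd3 was not called (limma on 36 arrays, Benjamini-Hochberg adjusted p under 0.05 over 12463 genes). Among all genes tested 19.3% were called higher and 29% lower. The members' median log2 difference was 0.33, against -0.03 for all genes. The mitochondrial members were higher in 19 of 19 cases with a median of 0.31, and the peroxisomal members in 10 of 11 with a median of 0.33. The remaining 4 were all higher, with a median of 0.74. Most rises were small: 6 members reached 1.5-fold. Without the 2 chow arrays whose clock genes read another time, 32 members were higher.

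**Figure D1:**
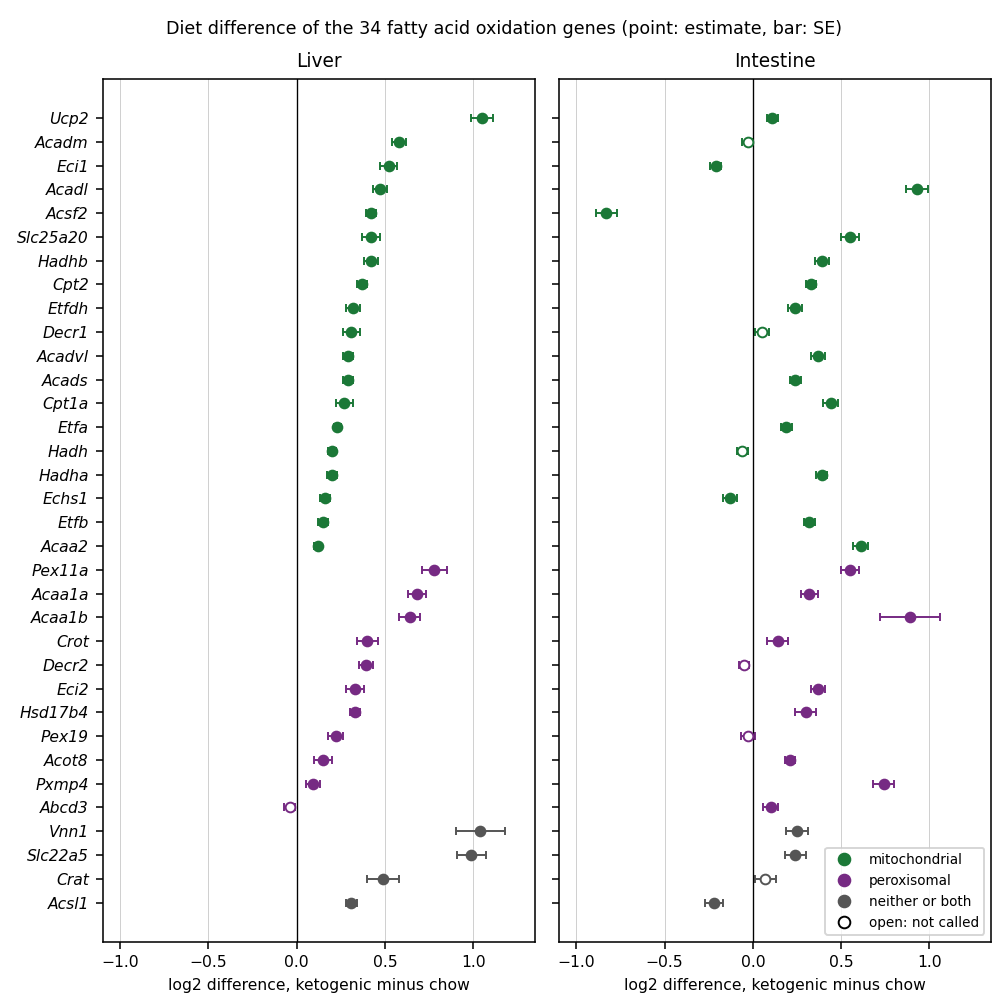
Diet difference of the 34 members in liver and intestine, as log2 ketogenic minus chow with its SE (limma, 18 arrays per diet and tissue), grouped by compartment. In liver all estimates but that of Abcd3 (-0.04) lie above 0, whereas in intestine Acsf2 (-0.83), Acsl1 (-0.22), Eci1 (-0.21) and Echs1 (-0.13) were called lower, Hadh (-0.06), Decr2 (-0.05), Acadm (-0.03) and Pex19 (-0.03) lie below 0 without being called, and Acadl (0.93) lies highest.

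The entry steps rose in liver. Slc22a5 encodes OCTN2, the plasma membrane carnitine transporter, and spanned 8.66 to 9.75 with a median of 9.15 on chow and 9.73 to 10.38 with a median of 10.16 on the ketogenic diet. The ranges touched only at their edge, with 17 of 18 ketogenic arrays above the highest chow array. Its difference was 0.99 ± 0.08 (SE, 18 arrays per diet), or 1.99-fold (adjusted p = 2.7e-11). Cpt2, the inner membrane carnitine palmitoyltransferase, rose by 0.37 ± 0.03 (adjusted p = 2.7e-10). The carnitine-acylcarnitine translocase Slc25a20 rose by 0.42 ± 0.05 (adjusted p = 6.9e-08). Cpt1a makes the acylcarnitines at the outer membrane and is regarded as the rate-setting enzyme of the pathway. It rose less, by 0.27 ± 0.05 (adjusted p = 8.8e-05), and its arrays overlapped, at 11.71 to 12.71 on chow and 12.38 to 12.76 on the ketogenic diet. Crat, the carnitine acetyltransferase of mitochondria and peroxisomes, rose by 0.49 ± 0.09 (adjusted p = 4.4e-05). Acyl-CoA activation rose as well: Acsl1, the main long-chain acyl-CoA synthetase of liver, by 0.31 ± 0.03 (adjusted p = 2.5e-09), and the mitochondrial synthetase Acsf2 by 0.42 ± 0.03 (adjusted p = 1.4e-13).

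Slc25a20 is 1 of 3 members in whose promoter window (250 bases before to 50 after the annotated start) a direct repeat of AGGTCA spaced by 1 base, the kind of element that PPARA binds with RXR, was found when up to 2 mismatches over the AGGTCA, spacer and AGGTCA were allowed on either strand. The 3 windows are shown because they are the members' only matches; capitals mark the match. The sequences are from RefSeq on GRCm38.p6, read in the direction of transcription: Slc25a20 at chr9:108661886-108662185 (plus strand), Etfa at chr9:55512194-55512493 (minus strand) and Echs1 at chr7:140116372-140116671 (minus strand).
Slc25a20: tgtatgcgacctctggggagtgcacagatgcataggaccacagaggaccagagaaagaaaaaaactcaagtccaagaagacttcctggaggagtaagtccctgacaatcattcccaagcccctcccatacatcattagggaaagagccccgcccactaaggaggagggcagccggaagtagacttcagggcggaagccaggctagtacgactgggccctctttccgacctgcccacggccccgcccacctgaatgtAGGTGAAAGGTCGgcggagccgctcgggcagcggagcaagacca
Etfa: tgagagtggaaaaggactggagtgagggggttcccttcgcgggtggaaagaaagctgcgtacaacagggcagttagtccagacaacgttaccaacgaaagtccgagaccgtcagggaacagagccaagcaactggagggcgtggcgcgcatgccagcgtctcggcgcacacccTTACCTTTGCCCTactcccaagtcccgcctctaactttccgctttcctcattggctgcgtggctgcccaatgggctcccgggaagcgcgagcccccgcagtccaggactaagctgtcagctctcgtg
Echs1: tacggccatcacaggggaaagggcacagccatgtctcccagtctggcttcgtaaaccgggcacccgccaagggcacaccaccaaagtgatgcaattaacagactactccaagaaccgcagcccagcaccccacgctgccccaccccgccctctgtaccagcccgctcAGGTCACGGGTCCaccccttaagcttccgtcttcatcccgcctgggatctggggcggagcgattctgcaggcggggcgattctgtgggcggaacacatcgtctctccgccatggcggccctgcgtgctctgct
The match starts at position 7 counted from the transcript's start in Slc25a20, at -77 in Etfa, on the opposite strand, and at -83 in Echs1. Each has 2 mismatches. Windows were found for 28 of the 34 members, 30 windows in all, so 10% of member windows held such a match, against 3.86% of all 32851 windows. With at most 1 mismatch 0 of 30 member windows and 0.554% of all windows matched. The single element AGGTCA, which the longer motif contains, was in 13.3% of member windows and 16.3% of all windows. The E-box CACGTG, bound by CLOCK and BMAL1, was in 0 of 30 member windows and in 7.15% of all windows. In liver Etfa rose by 0.23 ± 0.02 and Echs1 by 0.16 ± 0.03, the latter among the smallest rises of the list.

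The acyl-CoA dehydrogenases, which carry out the opening step of each round for chains of different length, all rose in liver. Acadm, for medium chains, spanned 11.60 to 12.18 with a median of 11.87 on chow and 12.25 to 12.64 with a median of 12.53 on the ketogenic diet. No arrays overlapped between the diets, and the difference was 0.58 ± 0.04 (adjusted p = 2.3e-11). Acadl, for long chains, rose by 0.47 ± 0.04, Acadvl, for very long chains, by 0.29 ± 0.03, and Acads, for short chains, by 0.29 ± 0.03. In Acadl and Acadvl the diets did not overlap either. The complete list of members whose 18 ketogenic arrays all lay above all 18 chow arrays was Acadvl, Acadl, Acadm, Eci1, Acaa1b, Ucp2 and Acsf2. These are 7 of 34, against 0.409% of all genes tested.

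The later mitochondrial steps rose by less, apart from the trifunctional protein's beta subunit. Hadhb, that subunit, rose by 0.42 ± 0.04 and Hadha, the alpha subunit, by 0.20 ± 0.03; a further probe set of Hadhb gave 0.42. Hadh, the short-chain 3-hydroxyacyl-CoA dehydrogenase, rose by 0.20 ± 0.02, and Acaa2, the mitochondrial 3-ketoacyl-CoA thiolase, by 0.12 ± 0.02. The electron transfer chain of the pathway rose too. Etfdh, the ubiquinone oxidoreductase, rose by 0.32 ± 0.04 and Etfb, a subunit of the electron transfer flavoprotein, by 0.15 ± 0.03. The adjusted p-values of these 6 genes lay between 7.8e-10 (Hadhb) and 1.3e-04 (Acaa2).

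Enzymes that handle unsaturated fatty acids rose in liver in both compartments. Eci1, the mitochondrial enoyl-CoA isomerase, spanned 10.41 to 10.99 with a median of 10.64 on chow and 11 to 11.31 with a median of 11.19 on the ketogenic diet, without overlap (0.52 ± 0.05, adjusted p = 4.2e-10). Its peroxisomal counterpart Eci2 rose by 0.33 ± 0.05 (adjusted p = 1.1e-05). The dienoyl-CoA reductases rose by 0.31 ± 0.05 (Decr1, mitochondrial) and 0.39 ± 0.04 (Decr2, peroxisomal).

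Ucp2 and Vnn1 had the largest rises in liver together with Slc22a5. Ucp2, a mitochondrial inner membrane carrier of the uncoupling protein family, spanned 9.42 to 10.04 with a median of 9.62 on chow and 10.30 to 11 with a median of 10.76 on the ketogenic diet. The difference was 1.05 ± 0.06 (adjusted p = 1.1e-13), and it was called at each of the 6 time points, where it lay between 0.93 and 1.14. Vnn1, a pantetheinase that releases the coenzyme A precursor pantothenate, spanned 9.90 to 12.06 with a median of 11.06 on chow and 11.72 to 12.47 with a median of 12.16 on the ketogenic diet. The chow arrays were the more scattered, 10 of 18 ketogenic arrays lay above all of them, and the difference was 1.04 ± 0.14 (adjusted p = 6.0e-07).

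Among the peroxisomal members the largest rise in liver was that of Pex11a, a membrane protein that takes part in peroxisome division. It spanned 10.91 to 11.80 with a median of 11.42 on chow and 11.76 to 12.42 with a median of 12.23 on the ketogenic diet, and rose by 0.78 ± 0.07 (adjusted p = 5.9e-10). The peroxisomal thiolases Acaa1a and Acaa1b, which close each round, followed. Acaa1a spanned 9.43 to 10.15 with a median of 9.76 on chow and 10.08 to 10.77 with a median of 10.47 on the ketogenic diet, with 17 of 18 ketogenic arrays above all chow arrays (0.68 ± 0.05, adjusted p = 1.1e-12). Acaa1b spanned 10.24 to 11.32 with a median of 10.89 on chow and 11.32 to 11.79 with a median of 11.57 on the ketogenic diet (0.64 ± 0.06, adjusted p = 2.4e-09). The coding regions of this pair are nearly the same, so signal may be shared between their probe sets, which was not tested.

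The promoter windows of the pair are shown because their rises in liver were of like size. Capitals mark the longest runs of bases that both share, of which there are 2, GATTGGCT and GCTTTGAG, each 8 bases long. How often unrelated windows share runs of this length was not counted, so the runs are a description. Acaa1a lies at chr9:119341044-119341343 (plus strand) and Acaa1b at chr9:119157044-119157343 (minus strand) of GRCm38.p6, from RefSeq, both read in the direction of transcription.
Acaa1a: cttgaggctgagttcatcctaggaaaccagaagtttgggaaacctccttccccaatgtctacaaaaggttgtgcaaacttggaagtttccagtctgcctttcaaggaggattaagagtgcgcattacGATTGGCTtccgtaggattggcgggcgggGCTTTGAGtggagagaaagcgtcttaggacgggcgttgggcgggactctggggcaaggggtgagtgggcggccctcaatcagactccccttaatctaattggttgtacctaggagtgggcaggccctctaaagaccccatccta
Acaa1b: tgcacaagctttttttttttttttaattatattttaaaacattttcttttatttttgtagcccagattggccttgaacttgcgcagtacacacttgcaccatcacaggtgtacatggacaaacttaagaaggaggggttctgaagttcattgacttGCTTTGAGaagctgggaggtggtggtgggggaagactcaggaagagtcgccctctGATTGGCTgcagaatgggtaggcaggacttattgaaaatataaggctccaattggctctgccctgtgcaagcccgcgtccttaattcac
GATTGGCT starts at position -123 in Acaa1a and at -39 in Acaa1b, and GCTTTGAG at -94 in both. Neither window held a match to the spaced repeat with up to 2 mismatches.

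The other peroxisomal members moved less in liver. Hsd17b4, the D-bifunctional protein of the peroxisomal cycle, rose by 0.33 ± 0.03 (adjusted p = 1.7e-09), and Crot, the carnitine octanoyltransferase that readies shortened chains for export, by 0.40 ± 0.06 (adjusted p = 3.8e-06). Pex19, a chaperone and import receptor for peroxisomal membrane proteins, rose by 0.22 ± 0.04 (adjusted p = 1.7e-04). Acot8, a peroxisomal thioesterase, rose by 0.15 ± 0.05 (adjusted p = 0.0133; 0.0716 when arrays were centred on their medians). Pxmp4, a small peroxisomal membrane protein, had a difference of 0.09 ± 0.04 (adjusted p = 0.0450), which rose to 0.123 without the 2 chow arrays named above and to 0.217 with median centring. Abcd3, the peroxisomal transporter for fatty acyl-CoA also called PMP70, spanned 12.04 to 12.50 on chow and 12.08 to 12.31 on the ketogenic diet (-0.04 ± 0.03, adjusted p = 0.271).

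**Figure D2:**
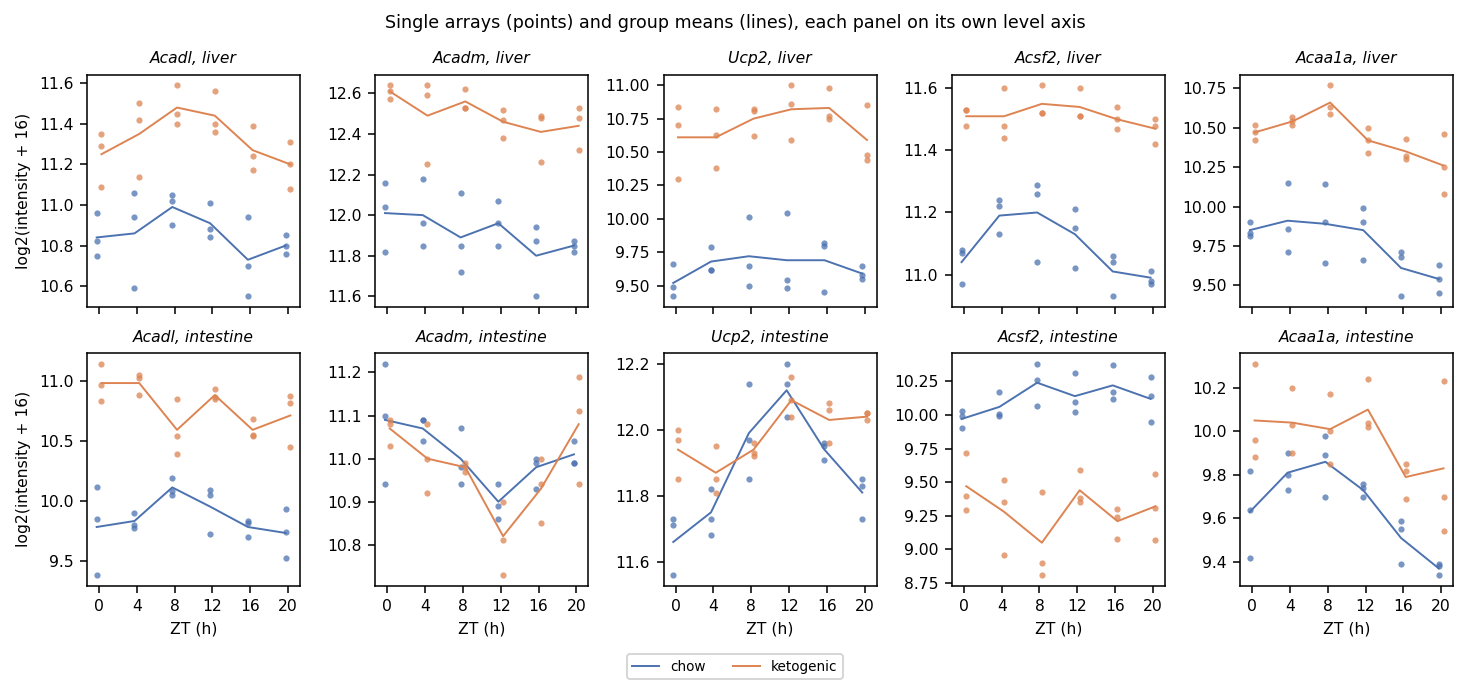
Values of every array for Acadl, Acadm, Ucp2, Acsf2 and Acaa1a by zeitgeber time in hours (horizontal axis), on the log2(intensity + 16) scale (vertical axis), in liver and intestine; points are arrays and lines join the group means of each diet. In liver the diets do not overlap for Acadl, Acadm, Ucp2 and Acsf2; in intestine they separate upward for Acadl (lowest ketogenic array 10.39, highest chow array 10.19) and downward for Acsf2 (highest ketogenic array 9.72, lowest chow array 9.90).

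In intestine the list split. Here 24 of the 34 members were higher on the ketogenic diet, 4 were lower and 6 were not called, against 19.7% of all genes called higher and 31.2% lower. Without the 3 arrays that stood apart, 22 were higher and 6 lower. The 24 include Acaa1b, whose mean on chow (6.63) lay below the filter level of 6.80, so that it was tested only through its ketogenic arrays (mean 7.52) and had to differ; 23 of the other 33 were higher. The median log2 difference was 0.24, against -0.02 for all genes. Of the mitochondrial members 13 of 19 were higher and 3 lower (median 0.24), and of the peroxisomal members 9 of 11 were higher and none lower (median 0.30). Without the 3 arrays the peroxisomal counts were 7 higher and 1 lower (median 0.23), and the mitochondrial counts 13 higher and 4 lower. Leaving Acaa1b out, 8 of 10 peroxisomal members were higher and none lower, or 6 higher and 1 lower without the 3 arrays. Both peroxisomal medians hold Acaa1b (0.89 with every array) and were not taken without it, so they are a description. The rise in both tissues was shared by 23 members, Acaa1b among them. Of all genes 19.3% were called higher in liver and 19.7% in intestine, and the share called in both was not counted.

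Acadl had the largest rise in intestine. It spanned 9.38 to 10.19 with a median of 9.84 on chow and 10.39 to 11.14 with a median of 10.85 on the ketogenic diet. It was the only member whose 18 ketogenic arrays all lay above all chow arrays there, where 0.0802% of all genes did so (0.93 ± 0.06, adjusted p = 3.4e-13). Acaa2 spanned 10.78 to 11.40 with a median of 11.05 on chow and 11.34 to 11.90 with a median of 11.65 on the ketogenic diet, and 17 of 18 ketogenic arrays lay above all chow arrays (0.61 ± 0.04, 1.52-fold, adjusted p = 1.2e-11). Of the carnitine shuttle, Slc25a20 rose by 0.55 ± 0.05, Cpt1a by 0.44 ± 0.04 and Cpt2 by 0.33 ± 0.03 (adjusted p from 4.1e-10 to 4.8e-09). Both subunits of the trifunctional protein rose by 0.39, with SEs of 0.03 for Hadha and 0.04 for Hadhb. Acadvl (0.37 ± 0.04), Etfb (0.32 ± 0.03), Etfdh (0.24 ± 0.04), Acads (0.24 ± 0.03) and Etfa (0.19 ± 0.03) rose as well (adjusted p at most 3.2e-05). Slc22a5 rose by 0.24 ± 0.06, Vnn1 by 0.25 ± 0.06 and Ucp2 by 0.11 ± 0.03 (adjusted p = 0.00105, 0.00175 and 0.00220).

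The 4 members that fell in intestine were Acsf2, Acsl1, Eci1 and Echs1, and the latter 3 fell little. Acsf2 spanned 9.90 to 10.38 with a median of 10.11 on chow and 8.81 to 9.72 with a median of 9.33 on the ketogenic diet, with every ketogenic array below every chow array, as for 0.233% of all genes. Its difference was -0.83 ± 0.06, or 1.78-fold lower (adjusted p = 1.3e-11), and a further probe set gave -0.84. Eci1 fell by 0.21 ± 0.03 on the log2 scale (adjusted p = 3.7e-07), with 16 of 18 ketogenic arrays below the lowest chow array. Acsl1 fell by 0.22 ± 0.05 (adjusted p = 9.0e-04) and Echs1, the short-chain enoyl-CoA hydratase, by 0.13 ± 0.04 (adjusted p = 0.00248). Not called were Acadm (-0.03 ± 0.03, adjusted p = 0.431), Hadh (-0.06 ± 0.03, 0.0544, and 0.0102 without the 3 arrays), Decr1 (0.05 ± 0.04), Decr2 (-0.05 ± 0.03, 0.154, and -0.07 with 0.0417 without the 3 arrays), Crat (0.07 ± 0.06) and Pex19 (-0.03 ± 0.04).

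Pxmp4 led the peroxisomal rises of the intestine by test. It spanned 9.24 to 9.71 with a median of 9.42 on chow and 9.35 to 11.02 with a median of 10.21 on the ketogenic diet, with 16 of 18 ketogenic arrays above all chow arrays (0.74 ± 0.06, adjusted p = 4.3e-11). Acaa1b was low and scattered there, at 5.40 to 7.49 with a median of 6.75 on chow and 5.84 to 9.58 with a median of 7.52 on the ketogenic diet, and the diets overlapped (0.89 ± 0.17, adjusted p = 1.2e-04). As it entered the test only through its ketogenic arrays, this is a description. Pex11a spanned 9.63 to 10.16 with a median of 9.82 on chow and 9.61 to 11.10 with a median of 10.43 on the ketogenic diet (0.55 ± 0.05, adjusted p = 6.1e-09). Eci2 (0.37 ± 0.04), Acaa1a (0.32 ± 0.05), Hsd17b4 (0.30 ± 0.06) and Acot8 (0.21 ± 0.03) rose too, with adjusted p-values of at most 2.3e-04. Crot (0.14 ± 0.06, adjusted p = 0.0322) and Abcd3 (0.10 ± 0.04, adjusted p = 0.0481) lay near the threshold, and without the 3 arrays the adjusted p was 0.117 for each.

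The diet effect itself was compared between tissues over 72 arrays and 10871 genes. It was larger (more positive) in liver for 16 members and in intestine for 7, where 17.3% and 14.4% of all genes were so called. Of the mitochondrial members 7 had the more positive effect in liver and 5 in intestine, and of the peroxisomal members 5 and 2. Acsf2 showed the widest gap, with 1.25 ± 0.07 more in liver (adjusted p = 4.6e-22). Ucp2 (0.95 ± 0.07), Vnn1 (0.80 ± 0.16), Slc22a5 (0.75 ± 0.10), Eci1 (0.73 ± 0.05) and Acadm (0.60 ± 0.05) followed (adjusted p at most 5.4e-05). In the opposite direction, Pxmp4 differed by -0.65 ± 0.07, Acaa2 by -0.48 ± 0.05 and Acadl by -0.45 ± 0.07 (adjusted p = 4.0e-11, 1.6e-11 and 1.8e-06). Acadm and Acadl, neighbours in chain length, thus differed in opposite directions between the tissues. The differences of Cpt1a (-0.17 ± 0.07, adjusted p = 0.0419), Abcd3 (-0.14, adjusted p = 0.0330) and Pex11a (0.24 ± 0.09, adjusted p = 0.0415) lay near the threshold. Without the 3 intestinal arrays the adjusted p was 0.0547 for Cpt1a and 0.0687 for Abcd3, and without the 2 chow liver arrays it was 0.0886 for Pex11a.

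The levels of the members were mostly higher in liver than in intestine. On chow 28 members were higher in liver and 5 lower, where 43.9% and 43.5% of 14055 genes were. On the ketogenic diet 30 were higher and 3 lower, against 43.6% and 43.5%. Acsl1 was 3.40 ± 0.04 higher in chow liver on the log2 scale. Acaa1b had a mean of 10.92 in chow liver and of 6.63, below the filter level, in chow intestine. Ucp2 was lower in liver on both diets, with differences of -2.23 (chow) and -1.28 (ketogenic diet). The carnitine transporter Slc22a5 went from -1.30 to -0.54. Vnn1 went from -0.77 on chow to 0.02 on the ketogenic diet (adjusted p = 0.857 for the latter). Acsf2 went from 0.97 to 2.22.

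The size of the diet difference was then followed through the day. In liver the median over all members was 0.30, 0.24, 0.35, 0.36, 0.40 and 0.39 at ZT0, 4, 8, 12, 16 and 20. The members called higher numbered 19, 10, 23, 22, 25 and 26, where 2.26%, 1.47%, 3.39%, 2.70%, 4.86% and 7.21% of all genes were, and none was called lower at any time (3.09%, 2.79%, 4.56%, 3.46%, 7.69% and 13.9% of all genes were). The estimate was above 0 at all 6 times for 32 members. At single times it was above 0 for 4875 (ZT20) to 6511 (ZT12) of the 12463 genes tested. The share of all genes above 0 at all 6 times was not counted. The mitochondrial and peroxisomal medians lay widest apart at ZT4 (0.23 and 0.16). At ZT8 the count fell from 23 to 14 without the 2 chow arrays whose clock genes read another time.

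In intestine the difference was small at ZT8. The median over all members was 0.35, 0.24, 0.00, 0.28, 0.29 and 0.34 at the 6 times. Members called higher numbered 22, 10, 2, 10, 15 and 14, where 2.33%, 0.955%, 1.28%, 0.642%, 2.17% and 1.31% of all genes were. Members called lower numbered 1, 2, 4, 1, 1 and 2, where 7.46%, 2.46%, 5.79%, 1.02%, 5.64% and 5.04% of all genes were. At ZT8 the mitochondrial median was 0.06 and the peroxisomal median -0.07. Without the 3 arrays that stood apart, of which ZT8 replicate 26 is 1, the ZT8 median over all members was -0.08, with 0 members higher and 8 lower. The 2 members higher at ZT8 were Acadl (0.49, adjusted p = 0.0312, against 1.20 at ZT0) and Acaa2 (0.35, adjusted p = 0.0443). At ZT0 the peroxisomal median went from 0.40 to 0.29 without these arrays. The peroxisomal medians hold Acaa1b (1.53 at ZT0, where it was among the 22 called higher), and none was taken without it. The members called higher without them numbered 15, 13, 0, 16, 18 and 16 at the 6 times.

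**Figure D3:**
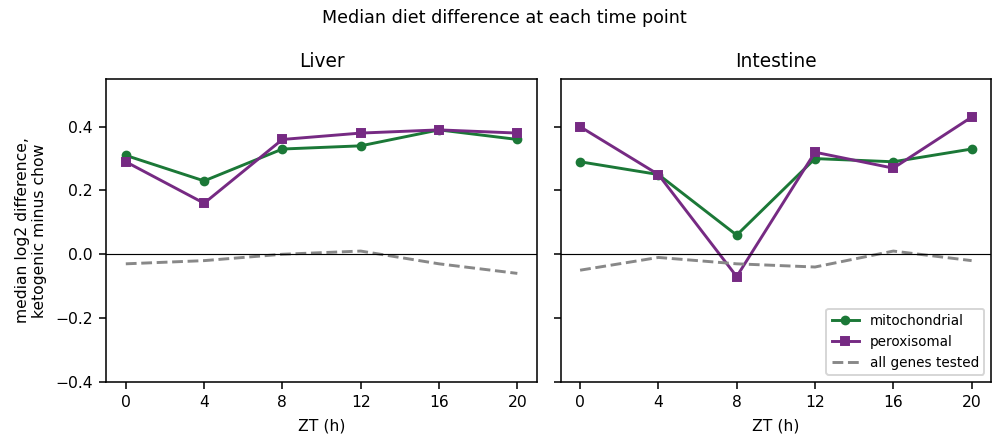
Median log2 difference between the ketogenic diet and chow (vertical axis) by zeitgeber time in hours (horizontal axis), for mitochondrial members, peroxisomal members and all genes tested, in liver and intestine. In liver both lists stay between 0.16 and 0.39, and in intestine both drop at ZT8, to 0.06 and -0.07. The peroxisomal list holds Acaa1b, which in intestine was tested only through its ketogenic arrays.

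Whether the members followed a 24 h rhythm was tested with a cosinor fit for each diet, in which the amplitude is how far the fitted curve rises over its mean, in log2 units. Times compared for single members below were picked as high or low from these same data. A lack of overlap between them, or between the diets at a single time, is a description, and its share among all genes was not counted. In chow liver 11 members were called rhythmic, where 17.6% of all genes were. In ketogenic liver 6 were, where 36.5% of all genes were, and 3 members (Crot, Pxmp4 and Acaa1a) were called on both diets, against 12.7% of all genes. The order of the diets depended on the test: the authors' deposited JTK_CYCLE q-values gave 4 members on chow and 10 on the ketogenic diet, and each diet fitted alone gave 8 and 14. Without the 2 chow arrays whose clock genes read another time, 11 and 9 were called: Hadha was lost on chow (adjusted p = 0.0563, from 0.0440) and Vnn1 gained (0.0404), and Cpt2 (0.0440), Etfdh (0.0334) and Pex19 (0.0435) were gained on the ketogenic diet. Mitochondrial members had median amplitudes of 0.08 (chow) and 0.05 (ketogenic diet), and peroxisomal members of 0.15 and 0.12. For all genes it was 0.08 and 0.09. Of the 11 peaks in chow liver, 10 fell between ZT0 and ZT8, in the light phase, as did 35.8% of the 2189 peaks of all genes called there. Apart from Pxmp4 these peaks ran from ZT1.1 (Crot) to ZT7.1 (Acsf2). The window follows them, so this share is no test.

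Crot had the largest called amplitude in chow liver. Its arrays were 12.51, 12.68 and 12.30 at ZT0, 12.66, 12.54 and 12.18 at ZT4, 12.21, 12.15 and 11.44 at ZT8, 11.48, 11.73 and 11.40 at ZT12, 11.74, 11.52 and 11.88 at ZT16, and 12.09, 12.25 and 12.22 at ZT20. The ZT0 arrays all lay above those of ZT12, and the low array at ZT8 was the one whose clock genes read 12.2 h. The amplitude was 0.51 ± 0.06 with a peak at ZT1.1 ± 0.5 (adjusted p = 6.7e-07). In ketogenic liver the arrays ran from 12.74, 12.88 and 12.65 at ZT0 to 11.93, 11.99 and 11.89 at ZT12, again without overlap (0.35 ± 0.06, peak at ZT0.2 ± 0.6, adjusted p = 9.9e-05).

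Other rhythms of chow liver were smaller. Etfdh was at 11.36, 11.42 and 11.27 at ZT0 and at 10.99, 10.73 and 11.08 at ZT16, which did not overlap (amplitude 0.20 ± 0.03, peak at ZT2.3, adjusted p = 2.6e-04). Eci2 was at 10.95, 10.75 and 10.42 at ZT4 and at 10.29, 10.31 and 10.19 at ZT20 (amplitude 0.25 ± 0.05, peak at ZT5.8, adjusted p = 0.00141). The activating enzyme Acsf2 was at 11.22, 11.13 and 11.24 at ZT4 and at 10.97, 10.98 and 11.01 at ZT20, without overlap (0.12 ± 0.02, peak at ZT7.1, adjusted p = 0.00172). Acaa1a peaked at ZT6.2 on chow (0.19 ± 0.04, adjusted p = 0.00820) and at ZT6.4 on the ketogenic diet (0.17 ± 0.04, adjusted p = 0.00979). Cpt1a (0.17, peak at ZT6.8), Acads (0.10, ZT6.6), Hadha (0.10, ZT3.3), Etfa (0.07, ZT3.4) and Pex19 (0.15, ZT7.0) completed the chow list. In ketogenic liver Acadl was at 11.45, 11.40 and 11.59 at ZT8 and at 11.20, 11.08 and 11.31 at ZT20 (0.14 ± 0.04, peak at ZT8.8, adjusted p = 0.0202). Acsl1 there peaked in the dark phase, at ZT17.9 (0.10 ± 0.03, adjusted p = 0.0226), and Decr2 at ZT7.2 (0.11 ± 0.03, adjusted p = 0.0385).

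Pxmp4 was the only member whose rhythm was called different between diets in liver, where 1.19% of all genes were. On chow its arrays were 11.99, 11.94 and 11.76 at ZT0, 11.65, 11.64 and 11.50 at ZT4, 11.44, 11.42 and 11.31 at ZT8, 11.48, 11.21 and 11.44 at ZT12, 11.62, 11.62 and 11.94 at ZT16, and 12.09, 11.99 and 11.94 at ZT20. On the ketogenic diet they were 12.27, 12.22 and 12.09 at ZT0, 11.61, 11.55 and 11.38 at ZT4, 11.16, 11.25 and 11.23 at ZT8, 11.40, 11.56 and 11.41 at ZT12, 11.92, 11.96 and 11.77 at ZT16, and 12.35, 12.16 and 12.29 at ZT20. The ketogenic arrays lay higher at ZT0 and ZT20 and lower at ZT8, with no overlap between diets at these 3 times. The amplitude went from 0.33 ± 0.04 to 0.54 ± 0.04 while the peak stayed at ZT21.3 ± 0.4 and ZT20.8 ± 0.3 (adjusted p of the difference = 0.0481). This difference missed the threshold in 27 of the 36 fits that left out an array (highest adjusted p 0.0878). At an unadjusted p under 0.05, 4 members differed, against 16.0% of all genes.

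In intestine the count of rhythmic members was 8 on chow, where 8.87% of all genes were rhythmic, and 21 on the ketogenic diet, where 14.6% were. Without the 3 arrays that stood apart it was 10 on chow and 18 on the ketogenic diet. Calls among the peroxisomal members went from 1 of 11 with chow to 9 of 11 with the ketogenic diet, and among the mitochondrial members from 5 to 9 of 19. Without the 3 arrays they were 2 and 7 of 11, and 6 and 8 of 19. The peroxisomal counts hold Acaa1b, which passed the filter only through its ketogenic arrays. Without it 1 and 8 of 10 were called on chow and the ketogenic diet, or 1 and 6 without the 3 arrays. Of all 33 other members 8 and 20 were called, or 9 and 17 without the 3 arrays. On the ketogenic diet Decr2 (adjusted p = 0.0154 with the 3 arrays, 0.0743 without), Hsd17b4 (0.0224, 0.0699), Acot8 (0.0399, 0.105) and Acadvl (0.0451, 0.128) were lost and Acaa1a (0.217, 0.0168) was gained. On chow Echs1 (0.0725, 0.0408) and Acaa1b (0.116, 0.0484) were gained. Peroxisomal members had median amplitudes of 0.09 (chow) and 0.25 (ketogenic diet), mitochondrial members 0.11 on both diets, and all genes 0.07 and 0.08. The peroxisomal medians hold Acaa1b (0.52 and 0.87) and were not taken without it or without the 3 arrays, so they are a description. Of the 21 peaks on the ketogenic diet 17 fell from ZT19 to ZT0, late in the dark phase. The window's bounds lie at members' own peaks (Pex11a at ZT19.0 and Decr2 at ZT0.0, with Vnn1 at ZT0.2 outside). It held 18.8% of the 1818 peaks of all genes called there, but as it follows the members, that share is no test. The 17 include Acaa1b, and also Decr2, Hsd17b4, Acot8 and Acadvl, which were lost without the 3 arrays. Called on both diets were 7 members, against 5.62% of all genes. A difference between diets was called only for Pxmp4 (and for Cpt1a without the 3 arrays), where 0.0401% of all genes had one; at an unadjusted p under 0.05 there were 14 members, against 6.32% of all genes. A count past the threshold on the ketogenic diet and not on chow is therefore not a called difference for the other members.

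Pxmp4 in chow intestine was flat, at 9.37, 9.71 and 9.26 at ZT0, 9.61, 9.48 and 9.36 at ZT4, 9.59, 9.51 and 9.64 at ZT8, 9.24, 9.42 and 9.24 at ZT12, 9.26, 9.44 and 9.36 at ZT16, and 9.28, 9.45 and 9.42 at ZT20. On the ketogenic diet it was at 11.02, 10.44 and 10.34 at ZT0, 10.08, 10.21 and 9.94 at ZT4, 9.35, 9.41 and 9.83 at ZT8, 9.83, 9.99 and 10.22 at ZT12, 10.26, 10.16 and 10.37 at ZT16, and 10.34, 10.65 and 10.53 at ZT20. The diets overlapped at ZT8 and at no other time. The amplitude went from 0.10 ± 0.06 to 0.47 ± 0.06 with a ketogenic peak at ZT20.9 ± 0.5 (adjusted p of the difference = 0.0170). It was 0.0101 without the 3 arrays that stood apart, and missed the threshold in 2 of the 36 fits that left out an array, those without chow ZT8 replicate 12 or ketogenic ZT8 replicate 24 (highest 0.0645).

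**Figure D4:**
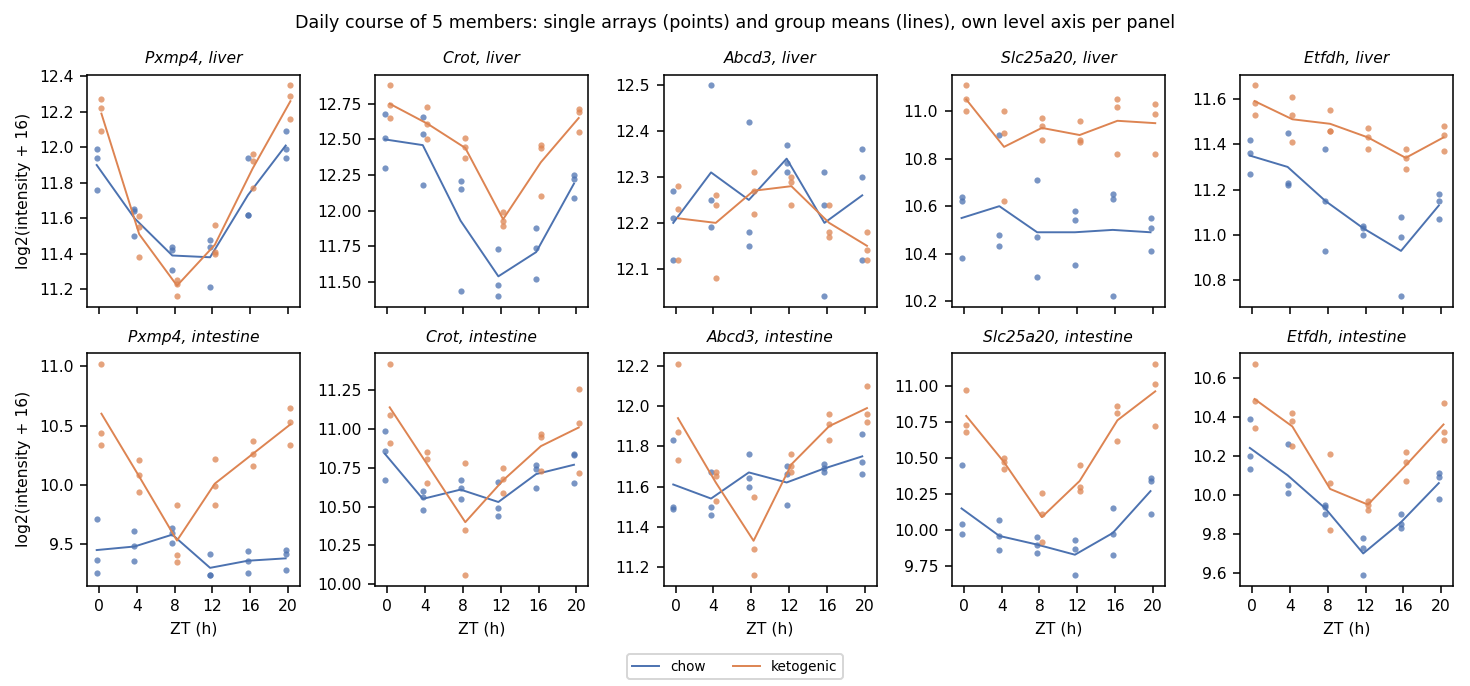
Values of every array by zeitgeber time in hours for Pxmp4, Crot, Abcd3, Slc25a20 and Etfdh in liver and intestine, on the log2(intensity + 16) scale, with lines through the group means of chow and ketogenic arrays. Pxmp4 in intestine runs between 9.24 and 9.71 on chow and falls to 9.35 at ZT8 from 11.02 at ZT0 on the ketogenic diet.

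Slc25a20 had the smallest rhythm p of the list in ketogenic intestine. Its arrays there were 10.97, 10.73 and 10.68 at ZT0, 10.50, 10.42 and 10.47 at ZT4, 10.11, 9.92 and 10.26 at ZT8, 10.30, 10.27 and 10.45 at ZT12, 10.62, 10.86 and 10.81 at ZT16, and 10.72, 11.15 and 11.01 at ZT20. The ZT8 arrays lay below those of every other time. The amplitude was 0.42 ± 0.05 with a peak at ZT20.4 ± 0.4 (adjusted p = 2.0e-07), against 0.20 ± 0.05 with a peak at ZT21.7 on chow (adjusted p = 0.0117). The difference between diets was not called (adjusted p = 0.457). Cpt2 was close in phase, at 11.55, 11.34 and 11.40 at ZT0 and 10.74, 10.71 and 10.91 at ZT8 on the ketogenic diet (0.29 ± 0.04, peak at ZT20.3, adjusted p = 1.8e-06) and 0.17 ± 0.04 on chow with a peak at ZT20.9. Cpt1a peaked at ZT19.5 on the ketogenic diet (0.22) and was not called on chow; its difference between diets had an adjusted p of 0.0613, or 0.0394 without the 3 arrays that stood apart.

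Etfdh kept its rhythm on both diets in intestine. On chow it was at 10.20, 10.39 and 10.13 at ZT0 and 9.59, 9.78 and 9.73 at ZT12, and on the ketogenic diet at 10.67, 10.48 and 10.34 at ZT0 and 9.92, 9.95 and 9.97 at ZT12, without overlap between these times on either diet. The amplitudes were 0.24 ± 0.04 with a peak at ZT0.5 (adjusted p = 2.4e-05) and 0.27 ± 0.04 with a peak at ZT23.5 (adjusted p = 2.7e-06). Hadhb on the ketogenic diet was at 11.05, 10.80 and 10.74 at ZT0 and 10.37, 10.10 and 10.57 at ZT8 (0.26 ± 0.04, peak at ZT22.0, adjusted p = 6.9e-05). The acyl-CoA transporter Abcd3, whose mean over the day differed by 0.10, was at 12.21, 11.87 and 11.73 at ZT0, 11.29, 11.16 and 11.55 at ZT8, and 11.96, 11.92 and 12.10 at ZT20 on the ketogenic diet. It was thus below chow (11.76, 11.60 and 11.64) at ZT8 without overlap (-0.34, limma diet contrast at ZT8, adjusted p = 0.0459). Its ketogenic amplitude was 0.31 ± 0.04 with a peak at ZT19.8 (adjusted p = 1.6e-05).

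Vnn1 and Ucp2 carried the clearest rhythms of chow intestine, in opposite phase. Vnn1 was at 12.07, 12.35 and 12.16 at ZT0 and 11.19, 11.45 and 11.49 at ZT16 (0.44 ± 0.06, peak at ZT2.1, adjusted p = 8.1e-06), and its ketogenic amplitude was 0.32. Ucp2 was at 11.56, 11.73 and 11.71 at ZT0 and 12.04, 12.20 and 12.14 at ZT12 (0.22 ± 0.03, peak at ZT12.1, adjusted p = 3.1e-06), and its ketogenic amplitude was 0.10. In both genes the 2 times named did not overlap, and neither difference between diets was called (adjusted p = 0.793 for Vnn1 and 0.155 for Ucp2). The acyl-CoA synthetase Acsl1 peaked at ZT16.3 on chow (0.29 ± 0.06, adjusted p = 0.00221), with 9.60, 9.52 and 9.61 at ZT16 and 9.09, 9.17 and 9.06 at ZT4. Acaa1a peaked at ZT7.1 there (0.24 ± 0.05, adjusted p = 0.00801).

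The remaining peroxisomal rhythms of ketogenic intestine were led in size by Acaa1b, with an amplitude of 0.87 and a peak at ZT22.3, from 9.58, 8.37 and 7.88 at ZT0 to 6.28, 5.84 and 7.49 at ZT8. As Acaa1b passed the filter only through its ketogenic arrays, this is a description. Pex11a (0.32, peak at ZT19.0), Crot (0.32, ZT21.2), Hsd17b4 (0.25, ZT22.1), Decr2 (0.13, ZT0.0), Pex19 (0.12, ZT2.9) and Acot8 (0.12, ZT22.6) were the others. The carnitine transporter Slc22a5 had an amplitude of 0.33 with a peak at ZT20.6.

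**Figure D5:**
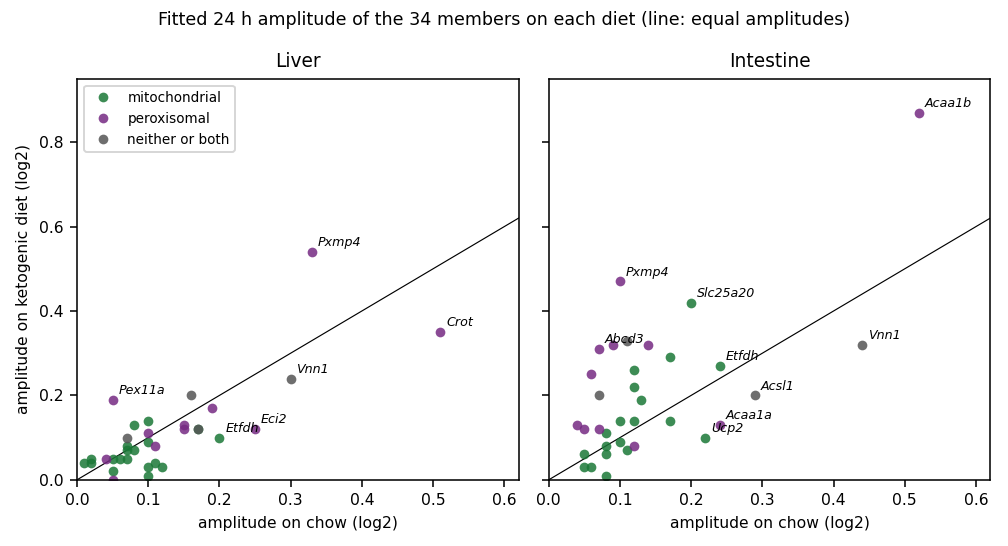
Fitted 24 h amplitude on the log2 scale on chow (horizontal axis) and on the ketogenic diet (vertical axis) for each member, in liver and intestine, marked by compartment, with a line of equal amplitudes. In intestine 9 of 11 peroxisomal members (Acaa1b among them) and 10 of 19 mitochondrial members lie above the line, and in liver 13 of all 34 members do. Of all 12463 genes tested, 6877 had the larger amplitude on the ketogenic diet in intestine and 7824 in liver.

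The wider pathway was less uniform than the members. Of 47 other genes of oxidation, activation and peroxisome biogenesis, 43 were tested in liver, with 24 higher, 4 lower (Slc25a17, Acsl5, Acsl4 and Pex10) and a median of 0.14. In intestine 37 were tested, with 10 higher, 8 lower and a median of -0.03. Among all genes tested 19.3% were higher and 29% lower in liver, and 19.7% and 31.2% in intestine. The 15 peroxisome biogenesis genes gave 5 higher and 1 lower in liver (median 0.06), and in intestine 14 were tested with 0 higher and 5 lower (median -0.04). Other peroxisomal oxidation genes gave 13 higher and 1 lower of 17 in liver, and 7 higher and 3 lower of 15 in intestine. Other mitochondrial oxidation genes gave 5 higher of 7 in liver and 1 of 6 in intestine. The largest rises in liver were those of the acyl-CoA thioesterases Acot2 (1.32 ± 0.19), Acot3 (1.31 ± 0.36) and Acot1 (1.28 ± 0.16), whose sequences are alike enough that probe sets may share signal, which was not tested, and of Acad12 (0.68 ± 0.07). Among the genes tested in intestine they were those of Acot2 (1.04 ± 0.11), of the very long chain acyl-CoA synthetase Slc27a2 (0.80 ± 0.10), of the dienoyl-CoA isomerase Ech1 (0.40 ± 0.04) and of Acot4 (0.33 ± 0.08). Acot1 was below the filter level in intestine and was not tested; its chow mean there was 5.36 and its ketogenic mean 7.32.

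The authors' deposited table holds its own tests. Its Cyber-T p-values lay under 0.05 for 27, 16, 26, 30, 29 and 30 of the 34 members at the 6 times in liver. In intestine they did so for 19, 21, 7, 22, 23 and 24, the lowest count being at ZT8. In the authors' deposited table JTK_CYCLE q-values lay under 0.05 for 4 members on chow and 10 on the ketogenic diet in liver, and for 5 and 9 in intestine. How many of all genes passed either threshold was not counted, so none of these counts has a background share beside it.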

How the data were processed

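RNA from 72 arrays was analysed. Per the submitters' processing notes, the authors deposited intensity values, summarised by PLIER (Affymetrix Expression Console 1.1.1); background and normalization settings are not given in the sources used here. In a sheet the authors deposited, p-values and q-values come from Cyber-T, JTK_CYCLE and BIO_CYCLE; its group means equalled those of the labelled arrays within a relative difference of 0.0001 for 25006 of 25006 probe sets. The sheet's phase lags were not used.

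From the deposited intensities, log2(intensity + 16) was computed (8.15% of liver and 7.47% of intestine values lay below 16). Of 35556 probe sets, 21789 had 1 symbol, 1621 several, 1374 (Ucp2 and Acsl1 among them) were named from the sheet and 10772 had no name here. Genes below the 40th percentile of the mean were left out. Models used limma 3.58.1 in R 4.3.3 (lmFit, eBayes) with 12 group means per tissue; adjusted p-values are Benjamini-Hochberg over all genes tested. The diet effect is the mean of 6 ketogenic minus 6 chow groups, and rhythm was a cosinor with a period of 24 h and a moderated F test. Checks ran on simulated data. Python 3.11.15 with matplotlib 3.10.9 drew the figures.

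The members and lists, and the clock and array checks, were chosen with earlier results of these data known. All 34 members are named; array values are given for the 6 with the largest diet differences, the smallest rhythm p-values or called differences, and other pathway genes by counts with the 4 largest called ones. Within groups arrays correlated at 0.978 to 0.9940 and no pair was identical. Title numbers shared by liver and intestine did not pair arrays: residuals of the 22 such pairs correlated at a median of 0.02 (-0.33 to 0.22), against -0.01 for 86 other pairs. Alternatives were other filters, pseudocounts, scalings, probe set means, the number as a block, other rhythm tests and arrays left out.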

Additional observations from a re-analysis of the deposited data

Results flagged for a closer look

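A difference in the diet effect between liver and intestine was called for 23 members (limma interaction over 72 arrays, adjusted p under 0.05). Given as log2 liver minus intestine, it was positive for Acsf2 (1.25), Ucp2 (0.95), Vnn1 (0.80), Slc22a5 (0.75), Eci1 (0.73), Acadm (0.60), Acsl1 (0.53), Decr2 (0.45), Crat (0.41), Acaa1a (0.36), Echs1 (0.29), Hadh (0.26), Decr1 (0.26), Crot (0.26), Pex19 (0.25) and Pex11a (0.24). It was negative for Pxmp4 (-0.65), Acaa2 (-0.48), Acadl (-0.45), Hadha (-0.19), Cpt1a (-0.17), Etfb (-0.17) and Abcd3 (-0.14). For Acsf2, Eci1, Acsl1 and Echs1 the effect was called in both tissues with opposite signs.

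Pxmp4 was the only member whose 24 h rhythm was called different between diets, with an adjusted p of 0.0481 in liver and 0.0170 in intestine (limma cosinor, 36 arrays each). The liver value is the less stable of the pair, as given below.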

How the results depend on the processing

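Counts of members with a diet effect kept within 1.5 times under each alternative except a 1.5-fold minimum, which left 6 higher in liver, and 4 higher and 1 lower in intestine. Median centring moved the share of all called genes that were higher from 39.9% to 28.1% in liver and from 38.7% to 28.2% in intestine.

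Rhythm counts moved more. In chow liver 7 members were called with no filter, 6 with median centring, 5 by a test of any difference between times, 4 by the deposited JTK_CYCLE q and 2 by BIO_CYCLE. In ketogenic liver 10 were called with quantile normalization, 2 by any difference, 14 with each diet fitted alone, 10 by JTK_CYCLE and 0 by BIO_CYCLE. In chow intestine 5 were called by any difference, 5 by JTK_CYCLE and 0 by BIO_CYCLE, and in ketogenic intestine 13 with the diet fitted alone, 9 by JTK_CYCLE and 0 by BIO_CYCLE. The rhythm difference of Pxmp4 in liver was lost, leaving 0 members, with no filter, a pseudocount of 1, median centring, the replicate block (adjusted p = 0.0526), any difference between times, and the times of the 2 clock arrays exchanged. In intestine 2 members had a rhythm difference with median centring (Pxmp4 and Ucp2), and with an intensity trend and robust fit or without the 3 arrays that stood apart (Pxmp4 and Cpt1a). The cause was not tested.

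Leaving out each array in turn gave 32 to 33 members higher and 0 lower in liver, medians of 0.30 to 0.33 (mitochondrial) and 0.32 to 0.35 (peroxisomal), and 113 to 130 calls summed over the 6 times (125 with every array). Liver rhythms numbered 7 to 14 on chow (7 without chow ZT16 replicate 8), 4 to 8 on the ketogenic diet, and 0 to 1 differences. Intestine gave 22 to 24 higher, 4 to 5 lower, medians of 0.23 to 0.26 and 0.26 to 0.32, 71 to 94 calls over the times (84), rhythms of 7 to 9 on chow and 16 to 22 on the ketogenic diet, and 0 to 2 differences. Between tissues 15 to 16 members were larger in liver and 5 to 7 in intestine, and levels were higher in liver for 27 to 29 members on chow and 30 on the ketogenic diet.

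Signs turned for Pex19 in intestine with quantile normalization (0.02, adjusted p = 0.703), for Crat in intestine without the 3 arrays (-0.01, adjusted p = 0.910), and for the tissue difference of Hsd17b4 with an array left out (-0.001, adjusted p = 0.996; up to 0.07 without others); none of the 3 was called. Replicates were not treated as paired by their numbers in the main fits. With the replicate block the diet counts were 33 higher in liver, and 24 higher and 5 lower in intestine. Ketogenic intestine then had 19 rhythmic members, Acadvl (adjusted p = 0.0519) and Pex19 (0.0522) being lost.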
